A study of Mus musculus with 8 samples.

Results

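The genes described here encode the subunits and assembly factors of the proteasome, measured by RNA sequencing in cells sorted as eosinophils from 2 mouse tissues, bone marrow and small intestine. They were chosen by symbol alone, as every gene of the Psma, Psmb, Psmc, Psmd, Psme, Psmf and Psmg series, and there were 49 of them among 38392 genes in the table. All samples came from female wildtype mice of the strain given as C57/BL6, and neither tissue carried a further allele, transgene or treatment. The study gives age only as a range over all of its mice. Its text counts 4 mice for each tissue, while the labels themselves say nothing of pooling. The bone marrow group held 4 libraries of CD11b+Ly6G-Ly6C-SiglecF+SSChi cells (columns BM_1, BM_3, BM_4, BM_5), and the small intestine group held 4 libraries of CD11b+MHC-II-SiglecF+SSChi cells (SI_6, SI_7, SI_10 and SI_11). Intestinal cells were released by warm digestion after removal of the epithelium and were enriched on CD11b beads, whereas bone marrow cells were flushed and sorted without either step, so tissue and handling cannot be told apart.

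The proteasome is the protease complex that degrades proteins tagged with ubiquitin. Its barrel-shaped core particle is built from rings of alpha subunits (Psma genes), which gate the entrance, and rings of beta subunits (Psmb genes), of which Psmb5, Psmb6 and Psmb7 carry the active sites in most cells. In cells exposed to interferon and in many leukocytes, the immunoproteasome subunits Psmb8, Psmb9 and Psmb10 take the places of Psmb5, Psmb6 and Psmb7 and change which peptides are made for presentation on MHC class I. The regulatory particle, made of ATPases (Psmc genes) and non-ATPase subunits (Psmd genes), captures and unfolds ubiquitinated proteins, while the activators PA28 (Psme1, Psme2 and Psme3) and PA200 (Psme4) open the core by another route. Eosinophils are granulocytes that mature in the bone marrow and settle in the intestinal wall, where their granule proteins and cytokines act on other cells.

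The promoters of the catalytic subunits other than Psmb7 are printed here because these subunits form the pairs on which the main comparison turned, and that of Psme1 because it was the most abundant member per transcript length in both tissues. Each is the 300-base window of RefSeq on GRCm38.p6, from 250 bases before the annotated start to 50 bases after it, with bases counted from 1 at its 5′ end. Capitals mark a match to 1 of 3 motifs, searched on both strands: TGACNNNGC (the core of the antioxidant response element, which also takes NRF1 and NRF2 with small MAF proteins), GAAANNGAA (the core of the interferon-stimulated response element) and TTCNNNGAA (the gamma-activated site). Psmb5 is on the minus strand at chr14:54617946-54618245, Psmb6 on the plus strand at chr11:70525107-70525406, Psmb8 on the plus strand at chr17:34197945-34198244, Psmb9 on the minus strand at chr17:34187281-34187580, Psmb10 on the minus strand at chr8:105938343-105938642 and Psme1 on the plus strand at chr14:55578244-55578543.
Psmb5: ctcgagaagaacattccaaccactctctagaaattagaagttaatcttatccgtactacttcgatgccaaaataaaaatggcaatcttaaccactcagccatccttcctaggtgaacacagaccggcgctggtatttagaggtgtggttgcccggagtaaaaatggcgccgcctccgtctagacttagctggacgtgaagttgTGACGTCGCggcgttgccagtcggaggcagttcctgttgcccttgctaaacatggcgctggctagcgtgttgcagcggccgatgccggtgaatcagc
Psmb6: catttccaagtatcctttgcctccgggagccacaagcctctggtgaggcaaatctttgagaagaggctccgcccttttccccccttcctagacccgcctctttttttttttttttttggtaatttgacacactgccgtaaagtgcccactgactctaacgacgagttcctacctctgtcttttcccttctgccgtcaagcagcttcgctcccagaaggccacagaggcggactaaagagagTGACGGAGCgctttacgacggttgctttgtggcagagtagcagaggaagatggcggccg
Psmb8: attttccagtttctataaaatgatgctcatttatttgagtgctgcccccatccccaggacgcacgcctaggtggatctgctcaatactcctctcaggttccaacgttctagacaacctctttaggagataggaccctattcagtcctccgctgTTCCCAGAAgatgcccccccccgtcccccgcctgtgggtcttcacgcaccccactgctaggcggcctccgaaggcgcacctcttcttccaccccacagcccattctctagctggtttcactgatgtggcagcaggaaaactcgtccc
Psmb9: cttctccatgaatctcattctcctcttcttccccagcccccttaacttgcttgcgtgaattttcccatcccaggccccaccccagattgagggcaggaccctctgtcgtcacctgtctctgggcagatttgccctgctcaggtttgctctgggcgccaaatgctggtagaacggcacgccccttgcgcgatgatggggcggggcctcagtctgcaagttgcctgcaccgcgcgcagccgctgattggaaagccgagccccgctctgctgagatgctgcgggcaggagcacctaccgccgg
Psmb10: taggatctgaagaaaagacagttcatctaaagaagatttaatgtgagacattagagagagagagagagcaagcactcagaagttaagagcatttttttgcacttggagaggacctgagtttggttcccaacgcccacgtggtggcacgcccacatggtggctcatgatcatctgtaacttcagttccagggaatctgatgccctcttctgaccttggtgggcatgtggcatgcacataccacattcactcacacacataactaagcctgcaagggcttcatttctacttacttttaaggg
Psme1: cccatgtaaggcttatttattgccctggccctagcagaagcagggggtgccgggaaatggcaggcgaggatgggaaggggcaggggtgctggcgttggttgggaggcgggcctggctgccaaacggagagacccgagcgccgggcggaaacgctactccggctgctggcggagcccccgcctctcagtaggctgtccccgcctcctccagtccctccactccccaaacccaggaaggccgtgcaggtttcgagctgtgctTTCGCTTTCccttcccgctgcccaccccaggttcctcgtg
The standard subunit genes Psmb5 and Psmb6 held the antioxidant response element core, at base 204 and base 242 in the printed direction. Psmb8 held a gamma-activated site at base 154, Psme1 held the interferon-stimulated core at base 261 in the opposite direction, so that the capitals show its complement, and the windows of Psmb9 and Psmb10 held none of the 3 motifs. The gene models of Psmb8, Psmb9 and Psme1 in GENCODE M21 begin upstream of these windows, at chromosome 17 position 34197721 for Psmb8 and position 34187764 for Psmb9 and at chromosome 14 position 55578123 for Psme1, so other starts of these genes were not searched.

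Of the 49 members, 41 had a promoter in the table, with 44 windows in all. The antioxidant response element core was in the promoters of 6 of 41 members, or 14.6%, against 13.99% of 27025 genes. The interferon-stimulated core was in 7, or 17.1%, against 9.76% of genes, and the gamma-activated site was in 3, or 7.32%, against 9.55%. The letters CCGGAAG, bound by ETS factors, were in 14 members, or 34.1%, against 9.93% of genes, and CCAAT was also in 14 members, against 41.1% of genes. A match to these letters is a description of the sequence and does not show that a factor binds there.

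The libraries held between 11508002 and 21289164 reads assigned to genes, and 48 of the 49 members had a mean of at least 10 reads. The sorted populations were not alike in their marker genes, so the labels were checked before the members were compared. Siglecf, Ccr3, Il5ra and Gata1, all eosinophil genes, were higher in the intestine, with Ccr3 at 70.9 ± 25.7 normalized counts in bone marrow and 16351 ± 2623 in the intestine (SD, n = 4). The granule protein genes Epx and Prg2 were lower, with Epx at 350 ± 40.2 in bone marrow and 20.6 ± 9.06 in the intestine. All 8 neutrophil precursor genes (such as Mpo and Elane) were lower in the intestine, and their sum was 322950 to 411654 normalized counts in the bone marrow libraries and 433 to 552 in the intestinal ones. The 6 eosinophil genes together had only 2355 to 3338 normalized counts in bone marrow, against 17095 to 25304 in the intestine. The markers of the bone marrow libraries thus went against their label, and both groups are called below by tissue alone. All 7 proliferation genes were lower as well, with sums of 50994 to 53561 in bone marrow and 3580 (SI_11) to 8591 (SI_6) in the intestine. The 7 epithelial genes were all higher in the intestine, where their sum ran from 2462 in SI_10 to 17050 in SI_6, against 27.8 to 79.9 in bone marrow, and the 8 macrophage and dendritic cell genes were all higher, with 29334 to 37546 against 816 to 991. Most of that sum came from Adgre1 (13672 ± 1373 in the intestine) and Itgax (14221 ± 1866), which intestinal eosinophils also express, while Csf1r had 1301 ± 74.2 and C1qa 76.8 ± 39.2. The MHC class II pathway genes Cd74, H2-Aa and H2-Ab1 had 3141 ± 2251, 1677 ± 1218 and 1093 ± 817 in the intestine. Their bone marrow means were 198, 122 and 143. Cd74 ran from 907 to 5904 over the intestinal libraries. The bone marrow sort had gated out Ly6G+ and Ly6C+ cells, and the intestinal sort MHC-II+ cells. Of the further lists, 3 of 5 plasma cell genes, 5 of 5 fibroblast genes, 4 of 4 endothelial genes and 1 of 5 T cell genes were higher in the intestine, and 4 of 5 erythroid genes and 2 of 5 B cell genes were lower. By the rule given below, 22.0% of all genes were higher and 12.9% lower. The plasma cell sum ran from 3909 in SI_10 to 26170 in SI_6, against 15.65 to 105 in bone marrow. Igha alone had 13597 ± 8701 normalized counts in the intestine. In such bulk samples, fewer cells of a type and less RNA per cell cannot be told apart, and the part of these other cell types and of proliferating cells in the differences below was not tested.

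Most proteasome genes were lower in the small intestinal than in the bone marrow libraries. The difference given for each gene is the mean deposited value in the small intestine minus that in bone marrow, on the log2-like scale of the authors' table, and a gene is called higher or lower where limma's adjusted p over all genes was under 0.05. By this rule 29 of the 49 members were called lower, 3 were called higher (Psmb10, Psmb11 and Psme2b) and 17 did not pass the test. Over all 38392 genes, 12.9% were called lower and 22.0% higher, and of the 16215 better covered genes (mean of 10 reads or more) 28.6% were called lower and 34.6% higher. The median difference of the members was -0.71, whereas that of all genes was 0.37 and that of the better covered genes 0.12. The values of the 2 tissues did not overlap for 34 members that were lower in the intestine and 4 that were higher, against 13.9% and 20.3% of all genes. Summed over the members, normalized counts (reads divided by the library's size factor) were 42193 ± 2353 in bone marrow and 26943 ± 2620 in the intestine (SD, n = 4), and the share of the members in the reads of protein-coding genes was 0.428% ± 0.00869 and 0.212% ± 0.0253. The direction of the 29 lower calls held under each of the 4 other scalings of the libraries, while Psmb10, called higher, turned to -0.24 when libraries were centered on the median of all genes.

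**Figure D1:**
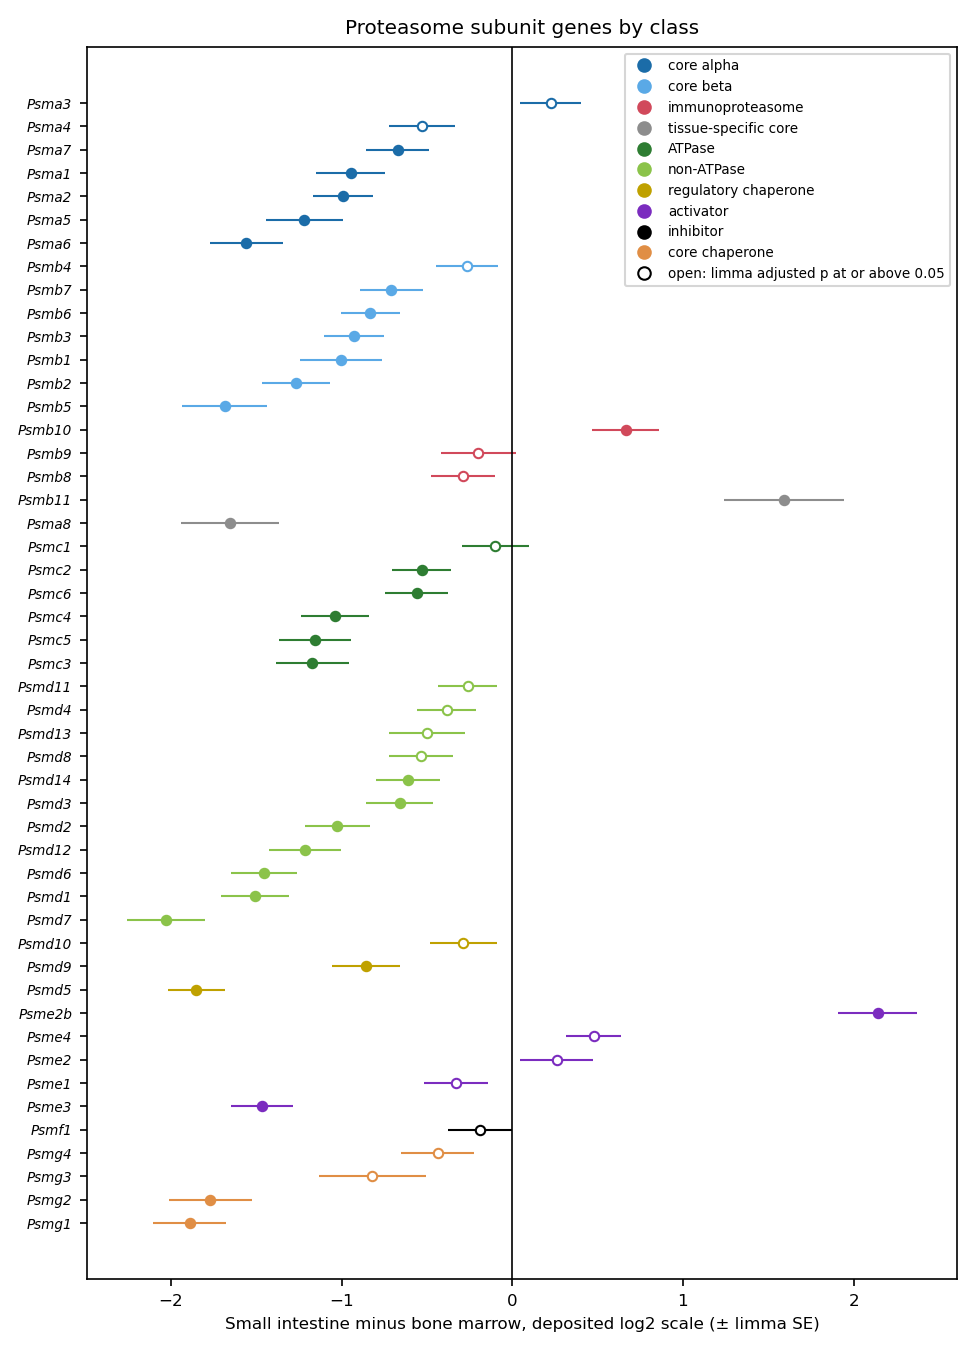
Differences between small intestine and bone marrow (x axis, deposited log2 scale) for the 49 proteasome genes (y axis, grouped and colored by class), with the limma standard error as bars and open circles for genes that did not pass the test. Most points lie left of 0, down to -2.03 for Psmd7, and the 3 filled points on the right are Psmb10, Psmb11 and Psme2b.

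Among the standard core subunits, 11 of 14 were called lower, Psma3, Psma4 and Psmb4 did not pass the test, and the median difference was -0.94. Of the 7 alpha ring genes 5 were called lower, and of the 7 standard beta ring genes 6 were. Values are given below as normalized counts in a fixed order of libraries, which is BM_1, BM_3, BM_4, BM_5 in bone marrow and SI_6, SI_7, SI_10, SI_11 in the intestine.

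In the alpha ring, Psma6 differed most. It had 2099, 1818, 1363 and 1582 normalized counts in bone marrow and 683, 495, 537 and 592 in the intestine. The highest intestinal library lay below the lowest bone marrow library, and the mean was 2.97-fold higher in bone marrow, with a log2 difference of -1.56 (SE 0.21, limma adjusted p 0.000593). Psma5, Psma2, Psma1 and Psma7 were also called lower, with differences of -1.22, -0.99, -0.95 and -0.67, and Psma4 missed the threshold with -0.53 (adjusted p 0.0649), although its tissues did not overlap. Psma3 stood apart within the ring. It had 1119, 1090, 957 and 1014 normalized counts in bone marrow and 1088, 1169, 1230 and 1413 in the intestine. These ranges overlapped, and its difference of 0.22 (SE 0.18, limma adjusted p 0.386) turned to -0.68 with median-centering and to -0.15 when scaled to protein-coding reads. Of the 75-base words of Psma3 transcripts, 14.4% also occur in processed pseudogenes, and of those of Psma5, 35.2% do, but the pseudogenes of Psma3 in the table had at most 19.7 normalized counts in any library, and Gm12989, the Psma5 pseudogene in the table, at most 3.28.

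In the beta ring, the strongest difference was that of Psmb5, the subunit with the chymotrypsin-like site. It had 421, 445, 416 and 363 normalized counts in bone marrow and 175, 104, 89.7 and 149 in the intestine. Each intestinal library was below every bone marrow library, and the mean was 3.18-fold higher in bone marrow (difference -1.68, SE 0.25, limma adjusted p 0.000902). Of the words of Psmb5, 36.8% are shared with Gm3375 and Mir686, neither of which is a row of the table. Psmb2, Psmb1 and Psmb3, structural subunits of the ring, were called lower with differences of -1.27, -1.003 and -0.93. Psmb4, also structural, was the only standard beta gene that did not pass the test: it had 1288, 1318, 1288 and 1167 normalized counts in bone marrow and 1093, 1062, 876 and 1196 in the intestine, ranges that overlapped, with a difference of -0.27 (SE 0.18, limma adjusted p 0.301).

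The other standard catalytic genes were lower by a smaller amount than Psmb5. Psmb6, with the caspase-like site, had 742, 707, 754 and 657 normalized counts in bone marrow and 461, 380.0, 375 and 389 in the intestine. Psmb7, with the trypsin-like site, had 836, 764, 825 and 664 and 522, 415, 446 and 503. In neither gene did the tissues overlap, and the differences were -0.83 for Psmb6 and -0.71 for Psmb7 (SE 0.17 and 0.18, limma adjusted p 0.00565 and 0.0163). Psmb7 shares 405 exon bases on the opposite strand with Nek6, whose mean was 89.0 normalized counts in bone marrow and 1223 in the intestine, and without a stated strand setting reads of that stretch could have been counted for either gene.

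None of the 3 immunoproteasome genes was called lower on the deposited scale. Psmb8, which replaces Psmb5, had 556, 662, 593 and 496 normalized counts in bone marrow and 525, 451, 408 and 501 in the intestine. Psmb9, which replaces Psmb6, had 1296, 1353, 1099 and 881 and 1047, 926, 835 and 1205. In both genes the ranges overlapped, and differences of -0.29 and -0.20 did not pass the test (SE 0.19 and 0.22, limma adjusted p 0.281 and 0.496). Both were called lower when scaled to protein-coding reads, with -0.65 for Psmb8 and -0.57 for Psmb9 (limma adjusted p 0.00308 and 0.0159), and Psmb8 also with median-centering, at -1.19 (adjusted p 0.0346). Psmb10, which replaces Psmb7, had 394, 356, 462 and 374 normalized counts in bone marrow and 678, 695, 504 and 653 in the intestine. All intestinal libraries exceeded all bone marrow libraries, 1.59-fold in the mean, with a difference of 0.66 (SE 0.19, limma adjusted p 0.0285). This call was lost without BM_1 (adjusted p 0.0631) or without BM_3 (adjusted p 0.0591), and when scaled to protein-coding reads the difference was 0.29 (adjusted p 0.155). Exons of Psmb9 share 212 bases on the opposite strand with Tap1, whose mean was 545 normalized counts in bone marrow and 793 in the intestine, and exons of Psmb8 share 498 bases with Gm20496, which is no row of the table. The summed normalized counts of the 3 genes were 2130 ± 268 in bone marrow and 2107 ± 268 in the intestine (SD, n = 4), while those of the 14 standard core genes were 13837 ± 1104 and 8027 ± 883. As a share of the reads of protein-coding genes, the 3 genes held 0.0216% ± 0.00204 in bone marrow and 0.0166% ± 0.00232 in the intestine.

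**Figure D2:**
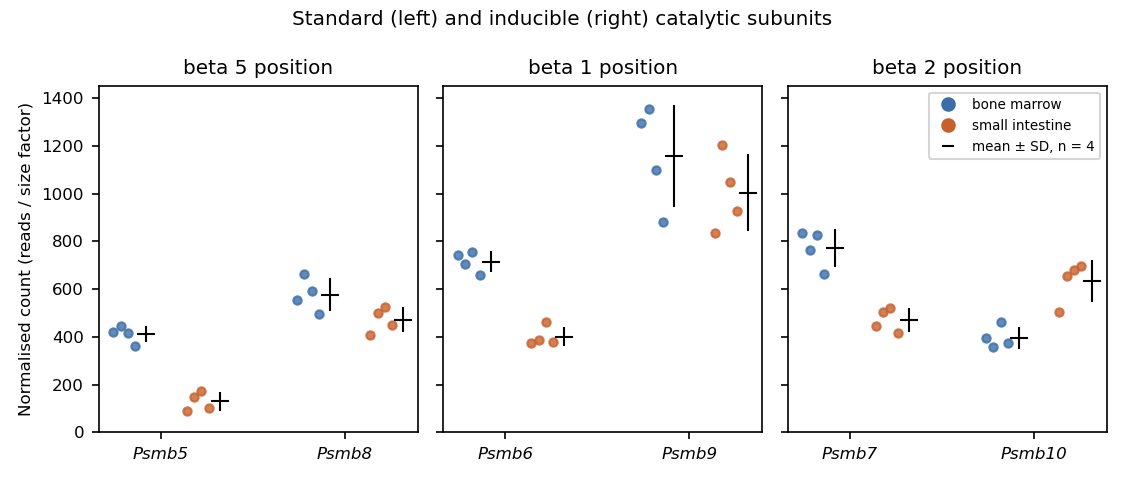
Normalized counts (y axis, linear from 0) of the standard and inducible catalytic subunits at each active-site position, 1 point per library, with the mean and SD of 4 libraries. The standard genes Psmb5, Psmb6 and Psmb7 are lower in every intestinal library, the tissues overlap for Psmb8 and Psmb9, and Psmb10 is higher in every intestinal library on this scale.

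The balance between an inducible subunit and the standard subunit whose place it takes was compared within each library, where the scaling of the library cancels. The deposited value of Psmb8 minus that of Psmb5 was 0.40, 0.57, 0.51 and 0.45 in the bone marrow libraries and 1.57, 2.08, 2.14 and 1.72 in the intestinal ones. Psmb9 minus Psmb6 was 0.80, 0.93, 0.54 and 0.42 in bone marrow and 1.18, 1.28, 1.15 and 1.62 in the intestine. Psmb10 minus Psmb7 was -1.08, -1.09, -0.83 and -0.82 in bone marrow and 0.38, 0.74, 0.17 and 0.38 in the intestine. In all 3 pairs the lowest intestinal value lay above the highest bone marrow value, and Psmb10 passed from below to above its partner on the deposited scale. The shift was 1.40 for Psmb8 and Psmb5, 0.63 for Psmb9 and Psmb6 and 1.37 for Psmb10 and Psmb7, which corresponds to 2.63-fold, 1.55-fold and 2.59-fold changes of the ratio. For each pair the exact 2-sided permutation test over the 70 assignments of libraries gave p = 0.0286, the smallest that 4 against 4 libraries allow, and 0.0286 after adjustment over the 5 pairs compared.

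**Figure D3:**
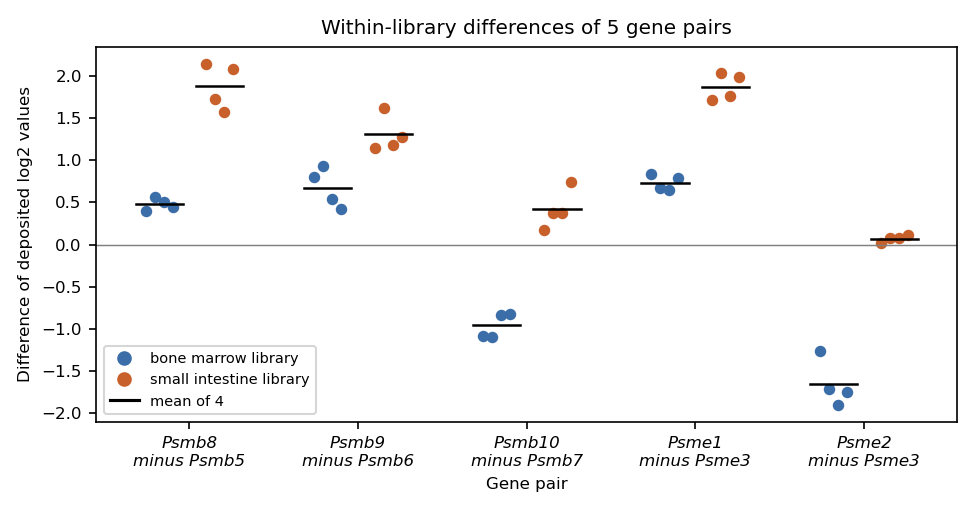
Within-library differences of deposited log2 values (y axis) for 5 gene pairs (x axis), 1 point per library, with bars at the mean of 4. In each pair every intestinal library lies above every bone marrow library, with shifts of the mean from 0.63 to 1.72.

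Per length of the principal transcript, the inducible gene made up a larger share of each pair in the intestine. Psmb8 was 43.6% ± 1.29 of the sum of Psmb8 and Psmb5 in bone marrow and 67.4% ± 4.38 in the intestine (SD, n = 4). For Psmb9 with Psmb6 the shares were 48.6% ± 4.07 and 59.4% ± 3.62, and for Psmb10 with Psmb7 they were 31.3% ± 2.24 and 54.2% ± 4.05. The level of these shares depended on the length used: with all annotated exons, the means for Psmb10 were 50.7% in bone marrow and 72.8% in the intestine, and Psmb8 was 27.1% in bone marrow and between 44.4% and 54.7% in the intestinal libraries. These are shares of transcripts, and the files hold no measure of assembled particles.

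The regulatory particle was lower as well, in both its parts. Of 6 ATPase genes 5 were called lower, with a median difference of -0.80. The strongest was Psmc3, with 838, 662, 656 and 587 normalized counts in bone marrow and 366, 322, 241 and 284 in the intestine. Its tissues did not overlap, and the mean was 2.26-fold higher in bone marrow (difference -1.17, SE 0.21, limma adjusted p 0.00271). Psmc5 and Psmc4 were close to it with -1.16 and -1.04, and Psmc6 and Psmc2 were called with -0.56 and -0.53 at adjusted p 0.0469 and 0.0423. The calls of Psmc6 and Psmc2 were lost without BM_1, without BM_3 and without BM_4, each of which left 3 ATPase genes called lower, and Psmc6 also without both BM_5 and SI_6. Psmc1, by contrast with the rest of the ATPase ring, had 767, 815, 816 and 763 normalized counts in bone marrow and 659, 677, 678 and 978 in the intestine. The ranges overlapped because SI_11 was high, and the difference was -0.10 (SE 0.20, limma adjusted p 0.72).

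Of the 11 non-ATPase genes, 7 were called lower, with a median difference of -0.66. Psmd7, the inactive partner of the deubiquitinase Psmd14, had the lowest difference of all members. It had 989.9, 1009, 996 and 871 normalized counts in bone marrow and 334, 204, 180.5 and 241 in the intestine. The tissues were far apart, 4.03-fold in the mean, with a difference of -2.03 (SE 0.23, limma adjusted p 0.000213). Psmd14 itself was called lower with -0.61, so that the transcripts of this pair differed unequally. The large scaffold subunits Psmd1 and Psmd2 were called lower with -1.51 and -1.02, and Psmd6, Psmd12 and Psmd3 with -1.45, -1.22 and -0.66. Psmd3 and Psmd14 lost their calls without BM_1, without BM_3 and without BM_4. The ubiquitin receptor Psmd4 and the subunits Psmd8, Psmd11 and Psmd13 did not pass the test, with differences from -0.53 for Psmd8 to -0.26 for Psmd11. Psmd11, the least different of the class, had 999, 842, 925 and 863 normalized counts in bone marrow and 738, 796, 696 and 792 in the intestine. Even there the tissues did not overlap, but the adjusted p was 0.277 in limma.

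**Figure D4:**
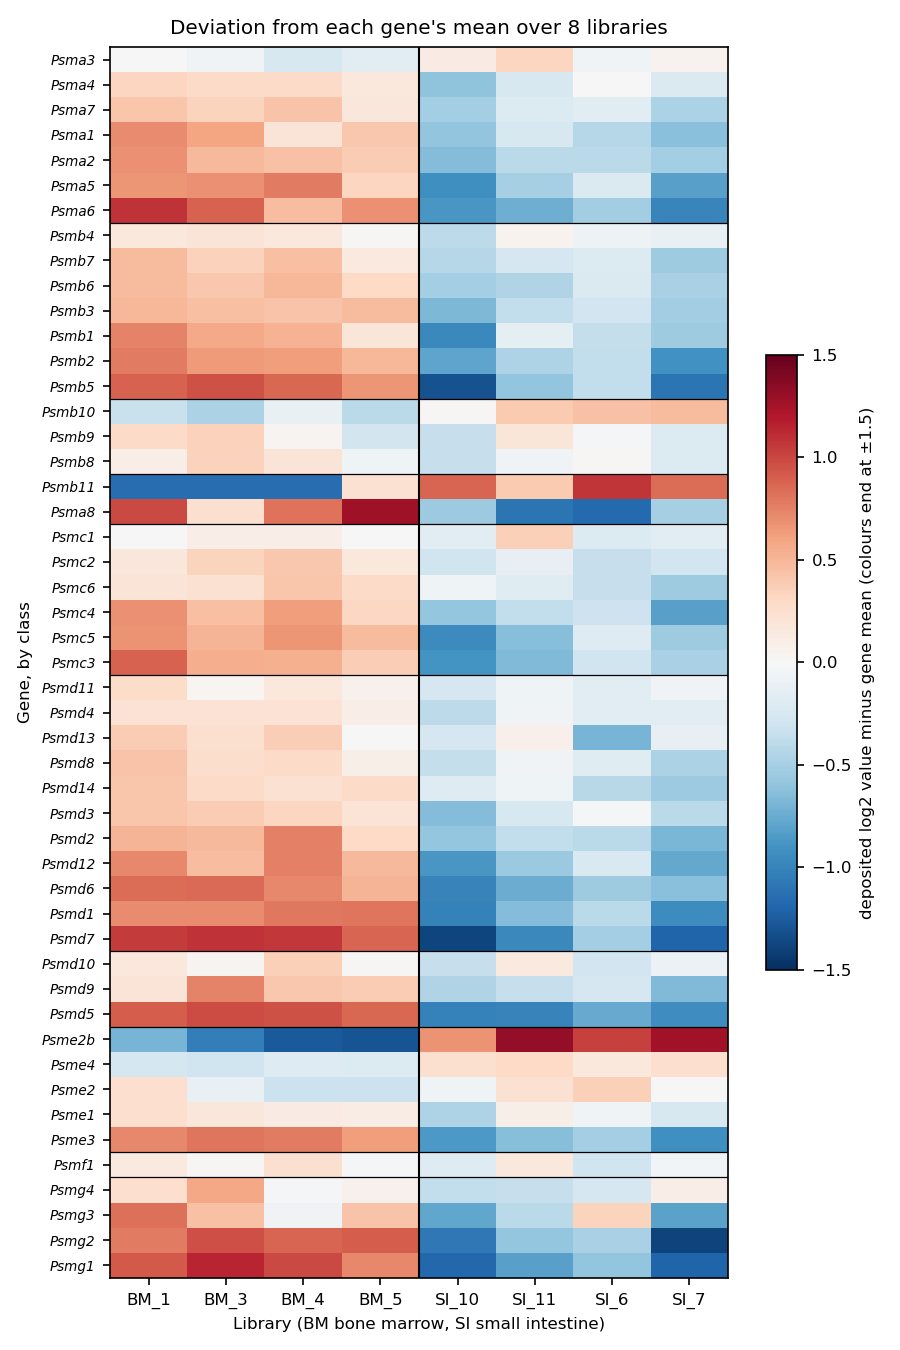
Deviation of the deposited log2 value from each gene's mean over the 8 libraries (color), for the 49 genes (rows, by class) in each library (columns). Standard core and regulatory particle genes are above their mean in bone marrow and below it in the intestine in most rows, with mostly the reverse in Psmb10, Psmb11, Psme2b and Psme4.

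Genes for assembly factors, which guide the building of the particle and then leave it, included some of the lowest differences. Psmg1 and Psmg2, which act as a dimer in building the alpha ring, were both called lower. Psmg1 had 302, 352, 318 and 263 normalized counts in bone marrow and 104, 66.6, 67.8 and 87.7 in the intestine. No intestinal library came near the bone marrow range, and the mean was 3.79-fold higher in bone marrow (difference -1.89, SE 0.21, limma adjusted p 0.000219). Psmg2 differed by -1.77, with 284 ± 15.8 normalized counts in bone marrow and 83.3 ± 24.6 in the intestine (SD, n = 4). Psmg3 and Psmg4, the other core chaperones, did not pass the test, with -0.82 (limma adjusted p 0.0763) and -0.44 (adjusted p 0.162). Psmg4 had 57.5, 73.0, 46.9 and 50.2 normalized counts in bone marrow and 39.3, 51.3, 36.1 and 36.7 in the intestine, at low counts and with overlapping ranges. Among the chaperones of the regulatory particle, Psmd5 had 772, 815, 799 and 751 normalized counts in bone marrow and 242, 214, 202 and 203 in the intestine. The replicates of Psmd5 were tight, and it had the smallest adjusted p of all members (difference -1.85, SE 0.17, limma adjusted p 6.4e-05). Psmd9 was called lower with -0.86, and 24.3% of its words are shared with Gm26745 on the opposite strand. Psmd10, known as gankyrin, had 335, 308, 384 and 303 normalized counts in bone marrow and 246, 282, 235 and 331 in the intestine, ranges that overlapped with a difference of -0.29 (limma adjusted p 0.303). Summed over the 7 assembly factors, normalized counts were 2.41-fold higher in bone marrow.

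The activators were not alike. Psme3, which forms the nuclear PA28 gamma ring, had 1927, 2037, 2005 and 1808 normalized counts in bone marrow and 822, 617, 639 and 747 in the intestine. The tissues did not overlap, and the mean was 2.75-fold higher in bone marrow (difference -1.46, SE 0.18, limma adjusted p 0.000357). Psme1 and Psme2 form the interferon-inducible PA28 alpha and beta ring. Psme1 had 3442, 3252, 3133 and 3119 normalized counts in bone marrow and 2788, 2449, 2098 and 3056 in the intestine, a difference of -0.33 that did not pass the test (SE 0.19, limma adjusted p 0.218), although the tissues did not overlap. Psme2 had 801, 622, 536 and 536 and 866, 669.8, 645 and 788, which overlapped, with a difference of 0.26 (SE 0.21, limma adjusted p 0.405) that turned to -0.64 with median-centering and to -0.11 when scaled to protein-coding reads.

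Within libraries, the alpha and beta genes gained on the gamma gene. Psme1 minus Psme3 was 0.84, 0.67, 0.64 and 0.79 in bone marrow and 1.76, 1.98, 1.71 and 2.03 in the intestine. Psme2 minus Psme3 was -1.26, -1.71, -1.90 and -1.75 in bone marrow and 0.07, 0.12, 0.01 and 0.08 in the intestine. Neither pair overlapped between tissues, and the ratios shifted 2.20-fold and 3.30-fold, with p = 0.0286 for each in the exact permutation test and the same value after adjustment. The 4 intestinal libraries had nearly equal deposited values of Psme2 and Psme3, but these values are not corrected for transcript length. Per kb of the principal transcript, mean normalized counts in the intestine were 772 for Psme2 and 265 for Psme3. In bone marrow they were 648 and 730.

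Psme4, which encodes PA200, had 1891, 1841, 1981 and 1961 normalized counts in bone marrow and 2522, 2701, 2679 and 2780 in the intestine. All intestinal libraries were higher on this scale, but the difference of 0.48 (SE 0.16) missed the threshold at a limma adjusted p of 0.0509, and it turned to -0.42 with median-centering. It passed without any 1 of BM_5, SI_6, SI_7, SI_10 or SI_11, with adjusted p between 0.00507 and 0.0406, and also without both BM_5 and SI_6. Psme2b, an annotated near copy of Psme2, had 48.3, 37.2, 31.6 and 30.7 normalized counts in bone marrow and 168, 198, 130.2 and 206 in the intestine. The tissues were far apart, with a difference of 2.14 (SE 0.23, limma adjusted p 0.000172), the highest of all members. Of its words, 60.2% are shared with Psme2, so its reads are uncertain, and the 2 genes summed to 661 ± 133 normalized counts in bone marrow and 918 ± 118 in the intestine. Psmf1, which encodes the inhibitor PI31, had 489.6, 445, 521 and 435 normalized counts in bone marrow and 358, 427, 385 and 494 in the intestine. Its ranges overlapped, with a difference of -0.19 (SE 0.19, limma adjusted p 0.476).

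Both tissue-specific core genes were measured at low counts. Psma8, the alpha subunit of the spermatoproteasome of the testis, had 33, 21, 23 and 34 reads in bone marrow and 3, 5, 6 and 3 reads in the intestine. The tissues did not overlap, and the gene was called lower (difference -1.65, SE 0.29, limma adjusted p 0.0021), while the 3 other spermatogenic genes examined did not pass the test. Psmb11, the beta subunit of the thymoproteasome of cortical thymic epithelium, had 0, 0, 0 and 2 reads in bone marrow and 5, 3, 4 and 2 in the intestine. With so few reads these libraries are at or near the limit that a count of 0 allows, and although limma called the gene higher (adjusted p 0.00761), no fold is given. Of the 3 other genes of cortical thymic epithelium examined, Foxn1 and Ccl25 were called higher and Prss16 lower. Foxn1 was also near 0, with means of 0.23 normalized counts in bone marrow and 5.64 in the intestine. Ccl25 had 128 ± 27.5 and 631 ± 600, and the sum of the 3 genes was highest in SI_6.

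Levels can be compared between genes only per transcript length, here as normalized counts per kb of the principal transcript. On this scale Psme1 was the highest member in both tissues, at 2910 ± 134 in bone marrow and 2336 ± 374 in the intestine (SD, n = 4). In bone marrow it was followed by Psma6 at 1646 ± 304 and Psma7 at 1575 ± 128, which did not differ beyond their spread, and in the intestine by Psma7 at 990 ± 123 and Psmb4 at 893 ± 113, which likewise overlapped within 1 SD. A particle built of standard subunits alone holds each in the same number of copies, but Psmb5, Psmb6 and Psmb7 can be replaced by inducible subunits. The levels of the 14 standard genes spanned 5.01-fold in bone marrow, from Psmb1 to Psma6. In the intestine they spanned 6.88-fold, from Psmb5, 1 of the replaceable subunits, to Psma7. These spans depended on the length used: per kb of all annotated exons they were 11.1-fold, again from Psmb1 to Psma6, and 8.6-fold, from Psmb1 to Psmb4. Per kb of the principal transcript, Psmb5 stood at rank 25 of the 49 in bone marrow and at rank 39 in the intestine, whereas Psmb10 moved from rank 35 to rank 12. Among the ATPase genes, which also occur in equal numbers, the span was 2.43-fold in bone marrow and 2.54-fold in the intestine, or 4.25-fold and 3.33-fold with all annotated exons.

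**Figure D5:**
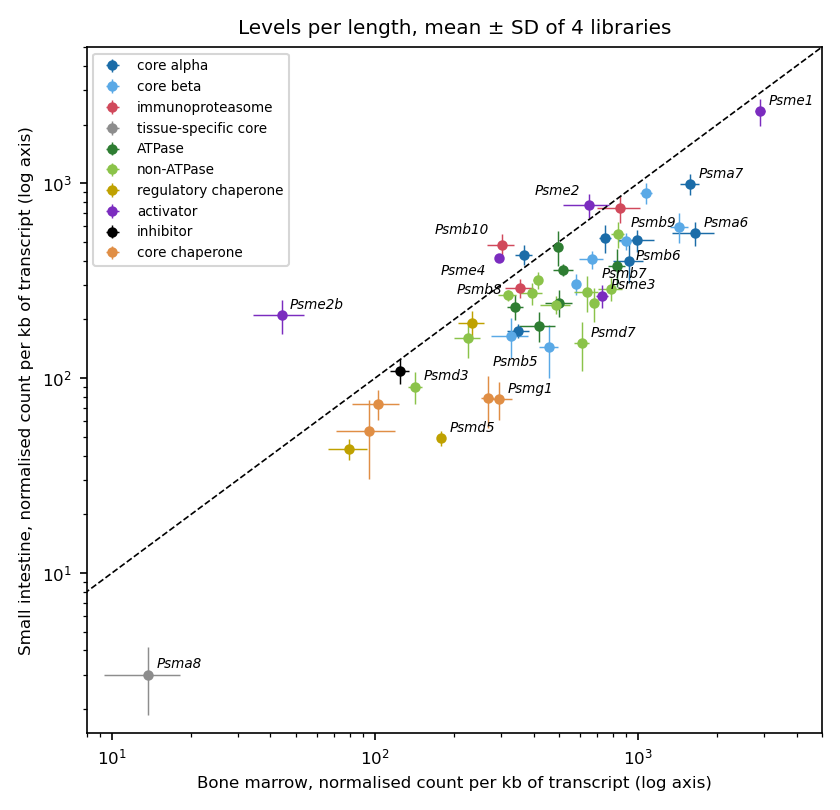
Normalized counts per kb of principal transcript in bone marrow (x axis, log) and small intestine (y axis, log), mean and SD of 4 libraries each, for 48 members colored by class (Psmb11, near 0, is left out). Points below the dashed line of equal levels are lower in the intestine, and Psme2b, Psmb10, Psme2, Psme4 and Psma3 lie above it.

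Within a tissue, some libraries held low or high values for many members. Over the 48 members with a mean of at least 10 reads, BM_5 had the lowest value of the bone marrow libraries for 31, and BM_1 the highest for 21. In the intestine SI_10 was lowest for 27, and SI_6 was highest for 25. SI_6 also had the highest sums of epithelial, plasma cell, fibroblast and proliferation genes in the intestine. SI_10 had the lowest epithelial and plasma cell sums. The part of those cells in the order of the libraries was not tested. Without both BM_5 and SI_6, 33 members were called lower and 4 higher, against 5211 and 9600 of all genes.

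Genes that work with the proteasome but are not part of the series were taken from lists. The counts of this list and of those that follow are to be read against the better covered genes. Of these, 28.6% were called lower and 34.6% higher. Whether any list departed from these shares was not tested. Of 10 accessory genes in the table, 4 were called lower and 2 higher, with a median difference of -0.52. The deubiquitinases of the regulatory particle were lower, Uchl5 with 2054 ± 90.1 normalized counts in bone marrow and 304 ± 36.9 in the intestine (difference -2.75, limma adjusted p 1.11e-05) and Usp14 with a difference of -1.55 (adjusted p 0.00146). Pomp, the maturation factor of the core, and the ubiquitin receptor Adrm1 did not pass the test, with -0.57 (limma adjusted p 0.0502) and -0.46 (adjusted p 0.116). Pomp was called lower with each of the 4 other scalings (limma adjusted p 0.000497 to 0.0364), and Adrm1 with median-centering and when scaled to protein-coding reads (adjusted p 0.0137 and 0.00394). Zfand5, which binds the proteasome, was the highest of the list with 1.03 (limma adjusted p 0.00414). This call was lost with median-centering over all genes but kept when centering on genes with at least 10 reads.

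Among 9 genes of the transcription factor pathway that induces proteasome genes, 4 were called higher and 3 lower, with a median difference of 0.44. Nfe2l1, which encodes NRF1, the factor that raises proteasome genes when proteasome activity is short, had 838 ± 67.7 normalized counts in bone marrow and 919 ± 66.4 in the intestine, a difference of 0.13 (limma adjusted p 0.56) that turned negative with median-centering and when scaled to protein-coding reads. Nfe2l2, which encodes NRF2, was called higher with 1.16 (limma adjusted p 0.00115). It was not called with median-centering over all genes, but was when centering on genes with at least 10 reads. Keap1, whose product holds NRF2 back, was called lower with -2.15 (limma adjusted p 8.95e-05), as was Ddi2, the protease that processes NRF1, with -0.89 (adjusted p 0.0374). The small MAF gene Maff differed most, from 13.4 ± 3.54 to 749 ± 176 normalized counts (difference 5.46, limma adjusted p 2.47e-06).

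Upstream of the proteasome, 8 genes of ubiquitin and its activating enzymes held 2 that were called higher and 3 called lower, with a median difference of -0.45. The ubiquitin gene Ubb had a difference of 0.08 (limma adjusted p 0.764), negative with 3 of the 4 other scalings and called lower when scaled to protein-coding reads (adjusted p 0.0476). The activating enzyme Uba1 was called lower with -1.08 and its relative Uba6 higher with 1.05. The call of Uba6 was lost with median-centering over all genes but kept when centering on genes with at least 10 reads. Of 13 unfoldase and shuttle genes, 6 were called lower and 2 higher, with a median difference of -0.49. Vcp, the unfoldase that extracts ubiquitinated proteins, differed by -1.09 (limma adjusted p 0.00267), and Sqstm1, the autophagy receptor that also binds ubiquitin, by 2.48 (adjusted p 3.87e-05).

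Downstream, the genes of class I antigen processing did not move one way: of 15, 4 were called higher, 3 lower and 8 did not pass, with a median difference of -0.06. The peptide transporter gene Tap2 was called higher with 0.86 (limma adjusted p 0.00982). It reached -0.04 with median-centering over all genes, but stayed called higher when centering on genes with at least 10 reads. Tap1 had 0.55 (limma adjusted p 0.0667), which also turned negative with median-centering over all genes and was called higher with quantile normalization (adjusted p 0.029). Irf1, an interferon-induced regulator of Psmb8, Psmb9 and Psmb10, was called higher with 2.44 (limma adjusted p 3.91e-05), whereas the class I regulator Nlrc5 had -0.06 (adjusted p 0.848). The chaperone gene Calr had the lowest difference of the list, -3.02, with 7520 ± 427 normalized counts in bone marrow and 964 ± 342 in the intestine. Of 6 cytosolic peptidase genes that act on proteasome products, Npepps was called higher with 1.55 and Blmh and Thop1 lower with -1.26 and -2.56, and the call of Npepps was lost with median-centering.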

How the data were processed

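RNA of sorted cells was amplified with the NuGEN Ovation RNA-Seq System v2 and sequenced from a single end on an Illumina HiSeq. The authors counted reads per gene with nf-core/rnaseq on GRCm38 with an Ensembl annotation. The values deposited by the authors are counts after the variance stabilisation of DESeq2 in R 4.0.3, on a log2-like scale. On it 1 unit is about a 2-fold change, or more than 2-fold where a gene has few reads. The aligner within that pipeline, its strand setting and its rule for multiply matching reads were not given in the sources used here, so genes with near copies or overlaps are uncertain. No raw count table was used. The transformation was inverted from its lowest value, 0.92971568, and gave whole reads within 0.05 for 100% of values in every library, with size factors between 0.721 and 1.53. Normalized counts are these reads divided by the size factor. Table columns gave the tissue but not the single sample, so libraries are named by column.

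Since the unit was log2 and not counts, all 38392 genes were tested on the deposited values with limma 3.58.1 (R 4.3.3), with a constant prior, no covariate, no filter, a 2-sided test and Benjamini-Hochberg adjustment over all genes at 0.05. Pair differences were tested by exact permutation over 70 assignments of libraries. Gene coordinates and transcript lengths came from GENCODE M21 on GRCm38, in which 38000 of the symbols were the same, and promoters from RefSeq. The test was tried on simulated data first. Given with each library's value are the catalytic subunits, activators and tissue-specific subunits, and in the other classes the members with the highest and lowest difference. Psma8 and Psmb11 fell under this rule despite few reads. From the lists of related genes, preset names and extreme members are given, except some that are not reported here. Further genes, such as the other subunits of a class, are given by their difference only. The members and all lists were chosen with earlier results of these data known, and they support nothing beyond their own values. The depth, 11508002 to 21289164 reads, limits precision mainly for genes with under 10 reads. Alternatives covered the scaling, the filter, the prior, the test (limma voom on recovered reads and treat against 1 log2 unit) and each library left out. Leaving out BM_5 and SI_6 together was chosen after seeing the data.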

Additional observations from a re-analysis of the deposited data

Results flagged for a closer look

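In 108 groups of 4 libraries (the deposited values of each member and each pair difference in each tissue), 4 groups had a library whose gap to its nearest neighbor as a share of the range exceeded the 95% limit of Dixon's test for 4 values. Chance sets apart about 1 group in 20, which is 5.4 of 108. For Psmb11 in bone marrow BM_5 was highest with a ratio of 1.0, because the other 3 libraries had 0 reads and BM_5 had 2. For Psmc1 in the intestine SI_11 was highest with 0.928, at 978 normalized counts against 659 to 678 in the others. For Psmd4 in bone marrow BM_5 was lowest with 0.979, at 520 normalized counts against 563 to 564. For Psmd7 in bone marrow BM_5 was lowest with 0.871, at 871 normalized counts against 990 to 1009, still above every intestinal library.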

How the results depend on the processing

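The pair differences kept their direction under every alternative run, but scaling cancels in them and groups that do not overlap cannot turn when 1 library is left out. These runs therefore could not have reversed them. Of the 32 called members, 25 kept direction and call under all 16 alternatives other than the test against 1 log2 unit, which asks for a larger difference and left 4 members called lower and 1 higher. Over all 38392 genes the test against 1 log2 unit called 1616 lower and 3460 higher. The scalings, the filter, the other prior and voom left 28 to 43 members called lower and 1 to 4 called higher. The lower calls over all genes moved as well. They were 4937 as deposited, 10216 with median-centering, 7032 with quantile normalization and 7206 when scaled to protein-coding reads. Psma7, Psmb10, Psmb11, Psmc2, Psmc6, Psmd14 and Psmd3 lost the call under at least 1 of the 16. Psmb11 has under 10 reads and was not tested with the filter of 10 reads. In the other direction, 15 of the 17 members that missed the threshold passed it under at least 1 of the 17 alternatives, among them Psma4 and Psmd8 (lower under 11 each), Psmd4 and Psmg3 (8 each), Psmd13 (6) and Psme1 (5). Leaving out 1 library left 24 to 32 members called lower and 2 to 4 called higher, with the fewest lower calls without BM_1 or BM_4. Over all genes these fits called 4281 to 5166 lower and 6701 to 9596 higher. The scalings moved the median of all genes, which was 0.37 as deposited, -0.53 with median-centering, -0.03 with quantile normalization and 0.05 when scaled to protein-coding reads, and 63.2%, 29.5%, 45.8% and 46.9% of all calls were higher. Relative to that median the members lay at -1.08, -1.08, -0.77 and -1.09. Median-centering here uses all genes, of which 22177 of 38392 had a mean under 10 reads. Centering on the median of genes with at least 10 reads instead gave an all-gene median of 0.31, with 59.5% of calls higher. The members then lay at -1.08 from it, and the difference of no member reversed. With the filter of 10 reads, the median of the tested genes was 0.12 and the members lay at -0.88 from it. With median-centering 1 member was called higher, and the differences of Psma3 (-0.68), Psmb10 (-0.24), Psme2 (-0.64) and Psme4 (-0.42) were negative. When scaled to protein-coding reads those of Psma3 (-0.15) and Psme2 (-0.11) were negative. None of these reversed values passed the test, and the cause was not tested. No paired analysis was possible because neither the sample titles nor the columns of the 2 tissues share a replicate number.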
